A study of Homo sapiens with 4 samples.

Results

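Dual-specificity phosphatases remove phosphate from both tyrosine and serine or threonine residues, and 10 genes of this family were followed here, DUSP1, DUSP2, DUSP4, DUSP5, DUSP6, DUSP7, DUSP10, DUSP13, DUSP14 and DUSP16. They were taken by the gene name printed in the array design, and were selected on their measured changes after transfection of miR-891b in these same arrays, so their values are a description and carry no test. They make up 10 of 43317 gene names and 10 of 58201 gene probes, with 19 spots per array, since DUSP1 was printed at 10 spots and each other gene at 1. The names matched the family label for all of them. The name DUSP13 covers what RefSeq now lists under DUSP13A and DUSP13B. Of the 4 RefSeq transcripts that the array design gives for the probe, 3 belong to DUSP13B and 1 to DUSP13A. The array design labels the probe itself with the DUSP13A transcript. The label and the transcript list do not tell which of the pair the probe reads.

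The cells were HCT116, a human colorectal cancer line, and A549, a human lung cancer line. Each line received either the microRNA miR-891b or the negative control RNA NC1, delivered with the lipid reagent Dharmafect1. The 4 groups, a control and a miR-891b group for each line, had 1 array apiece, hybridised in 1 colour with Cy3-labelled RNA made from 100 ng of total RNA. The amount of transfected RNA and the time to harvest were not given in the sources used here. There were no replicates, so no difference between groups has a replicate check, and having so few arrays limits how precise any value is. Per the file headers each line had a slide of its own, so line and slide cannot be told apart, while the contrast of miR-891b with NC1 lies inside 1 slide. Each array measured RNA pooled from a culture, so fewer cells with a transcript and less of it per cell cannot be told apart.

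The typical members of the family are MAP kinase phosphatases. They bind a phosphorylated ERK, JNK or p38 kinase and switch it off, and several are themselves transcribed in response to the pathway they close, which makes them feedback brakes. The atypical members, DUSP13 and DUSP14 among them, lack the kinase-binding domain and act on a wider range of substrates. DUSP13 transcripts are best known from skeletal muscle and testis.

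The transfected microRNA is shown first because it is what the labels give as the difference between the groups of a line. The capitals mark its seed, bases 2 to 8, the stretch that pairs with target transcripts. The sequence is from RefSeq, GRCh38.p14, chrX:146001100-146001121, minus strand, and is 22 bases long.
hsa-miR-891b: uGCAACUUaccugagucauuga
The DNA letters that pair with the seed are AAGTTGC. They were present in 229 of 58201 probe sequences and in 0 of the 10 phosphatase probes. A probe covers only 60 bases of a transcript, and the rest of each transcript was not searched here.

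Promoter windows (250 bases before to 50 after a RefSeq start, GRCh38.p14) were held for 8 of the 10 genes, in 10 windows. DUSP4 and DUSP5 had no entry, and DUSP13 had entries for DUSP13B but none for DUSP13A. The windows of DUSP13B, DUSP10 and DUSP1 are printed because DUSP13 and DUSP10 were higher with miR-891b and DUSP1 was lower in A549. All 3 are read 5′ to 3′ on the minus strand, at chr10:75099441-75099740 for DUSP13B, chr1:221742040-221742339 for DUSP10 and chr5:172771146-172771445 for DUSP1. Capitals mark matches on either strand to any of 7 motifs, given with their letters in the next paragraph.
DUSP13B: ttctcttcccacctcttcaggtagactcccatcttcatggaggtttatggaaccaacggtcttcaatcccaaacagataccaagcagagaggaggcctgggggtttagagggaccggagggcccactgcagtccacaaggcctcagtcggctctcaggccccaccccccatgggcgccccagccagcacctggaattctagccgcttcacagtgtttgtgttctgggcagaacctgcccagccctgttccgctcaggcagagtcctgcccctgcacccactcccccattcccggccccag
DUSP10: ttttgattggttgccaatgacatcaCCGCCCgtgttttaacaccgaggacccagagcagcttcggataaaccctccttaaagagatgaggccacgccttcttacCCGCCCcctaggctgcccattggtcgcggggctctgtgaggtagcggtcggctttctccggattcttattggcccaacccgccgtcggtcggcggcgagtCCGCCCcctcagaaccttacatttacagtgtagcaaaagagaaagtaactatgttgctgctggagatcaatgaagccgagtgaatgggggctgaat
DUSP1: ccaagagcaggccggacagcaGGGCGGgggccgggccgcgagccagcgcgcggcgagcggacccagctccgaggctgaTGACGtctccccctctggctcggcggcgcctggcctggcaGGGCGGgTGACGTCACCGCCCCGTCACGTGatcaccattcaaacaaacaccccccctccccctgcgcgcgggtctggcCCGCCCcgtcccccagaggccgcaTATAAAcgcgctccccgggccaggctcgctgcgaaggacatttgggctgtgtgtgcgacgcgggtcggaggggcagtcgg

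The motifs were searched on both strands in these windows and in all 35116 RefSeq promoter windows. The GC box GGGCGG was in 7 of the 10 windows and in 45.0% of all windows. The cyclic AMP response element TGACGTCA was in 1 window, that of DUSP1, against 1.85% of all, and its core TGACG was in 2 windows against 24.6%. The E-box CACGTG was in 2 windows against 7.26%, and the TATA box TATAAA in 1 against 12%. The AP-1 site TGANTCA and the ETS core CCGGAAG, found in 7.71% and 10.3% of all windows, were in 0 of the 10. The DUSP1 window held the full element at -125 from the start, an E-box at -108, a TATA box at -30, 4 GC boxes and 4 cores. Some of its cores lie inside the full element or overlap the E-box. The first DUSP10 window held 3 GC boxes. The DUSP13B window matched none of the 7 motifs, and its GC content was 61%, against a median of 58.7% over all windows, 73.3% for DUSP1 and 55.0% for DUSP10.

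Levels are given as log2 of the processed signal less the 75th percentile of gene probes on that array, so a level of 0 is a probe as bright as that percentile. A change is the level with miR-891b minus the level with NC1 in the same line. Feature Extraction, the scanner software, marks probes well above background, and a gene counts here as measured in a line if both arrays of the line carried the mark for its probe. The mark was set for 44.7% to 46% of gene probes on the HCT116 arrays and for 50.1% to 50.3% on the A549 arrays, and no gene spot was saturated. Areas of stray signal, where at least 10% of nearby dim spots were lit, held 10.5% of gene spots on the HCT116 miR-891b array and 0.0213% to 2.19% on the others. Of the markers of A549, 5 of 6 measured ones were at least 2-fold higher in A549 NC1 than in HCT116 NC1, with SFTA1P at a difference of -1.11 (log2). Of the HCT116 markers 4 of 6 were lower in A549 NC1, ELF3 was higher there by 1.62 and CDH1 within 2-fold. LGALS4 went against its label, at least 18.3-fold higher in A549 NC1 and not well above background in HCT116, and GPA33 was not well above background on either HCT116 array.

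Some line markers also differed with miR-891b. In HCT116, 1 of 5 measured A549 markers was at least 2-fold higher and 0 lower. It was AKR1B10, an aldo-keto reductase gene, at -2.29 with the control and 2.18 with miR-891b, a change of 4.47 (2.38 under normexp with quantile normalization). In A549, 0 of 7 were higher and 2 lower, KRT81, a keratin gene, at -1.64 and ALDH3A1, an aldehyde dehydrogenase gene, at -1.17 (-0.93 under quantile normalization). The ALDH3A1 spot lay in an area of stray signal on A549 miR-891b, and the KRT81 spot in one on HCT116 miR-891b. Of the HCT116 markers, 1 of 6 measured in HCT116 was lower, ELF3 at the 2-fold line (-0.92 under quantile normalization), and 1 of 7 in A549 was higher, the claudin gene CLDN3 at 1.03. Summed over the list, in multiples of the 75th percentile, A549 markers stood at 319 and 343 on the HCT116 control and miR-891b arrays and at 3285 and 2337 on those of A549. HCT116 markers summed to 198 and 152 in HCT116 and to 44.4 and 34.5 in A549. The part of these markers in the changes of the phosphatase genes was not tested.

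Of the 10 phosphatase genes, 8 were measured in HCT116, and 1 (DUSP13) was at least 2-fold higher with miR-891b and 0 at least 2-fold lower. Among all 19105 genes measured in HCT116, 1.16% were at least 2-fold higher and 0.843% at least 2-fold lower. In A549, 8 of the 10 were measured as well, with 2 (DUSP13 and DUSP10) at least 2-fold higher and 0 lower, where 4.01% of 21337 measured genes were higher and 5.57% lower. The genes had been chosen on these changes, so nothing is read from their share. The median change of the measured members was 0.21 in HCT116 (all genes -0.04) and 0.46 in A549 (all genes -0.06). Of 7 genes measured on all 4 arrays, DUSP13, DUSP14 and DUSP16 were higher with miR-891b in both lines, and DUSP1, DUSP4, DUSP5 and DUSP6 differed in opposite directions between the lines. Among 18063 genes measured on all 4 arrays, 45.1% had opposite signs.

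**Figure D1:**
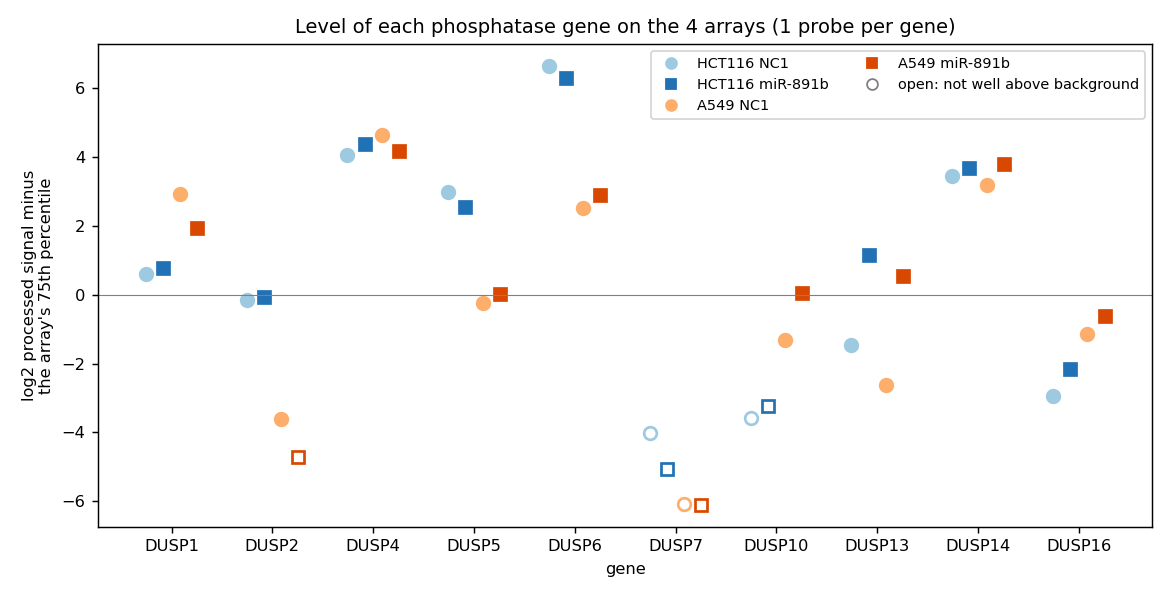
Level of each of the 10 genes (x axis) on the 4 arrays, as log2 processed signal less the 75th percentile of its array (y axis), with circles for NC1, squares for miR-891b, blue for HCT116, orange for A549 and open symbols where the probe was not well above background. The DUSP13 squares lie above its circles in both lines, at 1.15 against -1.45 in HCT116 and 0.53 against -2.62 in A549, and DUSP6 lies near 6.65 in HCT116 NC1 and near 2.53 in A549 NC1.

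DUSP13 had the largest change of the set in both lines. Its processed signal was 20.1 intensity units (the software's error, 2.29) on HCT116 NC1 and 127 (error 12.7) on HCT116 miR-891b. On A549 NC1 it was 12.1 (error 1.65), and on A549 miR-891b 107 (error 10.8). Both miR-891b arrays were above both NC1 arrays, and all 4 carried the mark for signal well above background. The share of all genes with this order is not given here.

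On the scaled log2 levels, DUSP13 stood at -1.45 on HCT116 NC1 and 1.15 on HCT116 miR-891b, a change of 2.60 or 6.06-fold. In A549 it stood at -2.62 under NC1 and at 0.53 under miR-891b, which is a change of 3.16 or 8.93-fold. It ranked 11 of 19105 measured genes from the top in HCT116 and 12 of 21337 in A549, which is part of how it came to be chosen. Normexp background correction with quantile normalization, which adds an offset of 50 intensity units to every signal, gave changes of 1.30 in HCT116 and 1.19 in A549, both still past 2-fold. From low to high, the A549 control array came first, then the HCT116 control, then A549 with miR-891b and last HCT116 with miR-891b.

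DUSP13 was read at a single spot, so it has no spot-to-spot spread of its own. As a guide to that technical spread, probes printed at 5 or more spots (274 of them) had a median SD of their log2 difference of 0.061 in HCT116 and 0.071 in A549. For the 8 of those probes with a mean level below 0 it was 0.096 and 0.19. Near the DUSP13 spot, 1.09% of dim spots were lit on each HCT116 array, and 3.72% and 4.23% on the NC1 and miR-891b arrays of A549, all under the 10% that defines an area of stray signal. The longest run of bases its probe shared with the probe of any other gene was 15 of 60.

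The DUSP13 probe lies on the minus strand at chr10:76854216-76854275 of hg19, the build of the array design. RefSeq places DUSP13B at chr10:75094434-75109191 and DUSP13A at chr10:75105669-75109157 of GRCh38.p14. The builds differ, and positions were not carried over from one to the other here, so the probe was not placed within either gene. Within 500 kb of the probe, 15 other named features had probes on the array, 10 were measured in each line, and 0 of them were past 2-fold. Their changes ran from -0.36 to 0.37 in HCT116 and from -0.33 to 0.82 in A549, where the highest was ZNF503, a zinc finger gene that stood at 1.04 under quantile normalization. The feature lnc-C10orf11-1 was not measured in HCT116, where its difference with no filter on dim probes was 2.72. In A549 it was measured, at -0.33. KAT6B, a histone acetyltransferase gene, changed by -0.20 in HCT116 and 0.21 in A549, and SAMD8 by -0.32 and -0.20. The highest in HCT116 was ADK, adenosine kinase, at 0.37, with 0.12 in A549, and its spot lay in an area of stray signal on HCT116 miR-891b. VDAC2, a mitochondrial channel gene, was at 0.12 and -0.32, and COMTD1 at -0.19 and 0.026. DUPD1, another atypical dual-specificity phosphatase gene, was on no array well above background.

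Because DUSP13 is best known from muscle and testis, markers of those tissues were set beside it. Of 6 skeletal muscle markers, 2 were measured in HCT116 and 3 in A549, with 0 past 2-fold. DES and ACTA1 were well above background on every array, and MYOG on every array except HCT116 miR-891b. The changes in HCT116 and A549 were -0.18 and -0.10 for DES, and -0.13 and 0.33 for ACTA1. MYOG changed by 0.05 in A549. MYOD1, CKM and MYH2 were not well above background on any array. The summed level of the 6 muscle markers, in multiples of the 75th percentile, was 3.16 and 2.84 on HCT116 NC1 and miR-891b. It was 1.55 and 1.53 on the A549 arrays. Of 6 testis germ cell markers, 1 was measured in each line, with 0 past 2-fold. It was PRM2, which was well above background on every array and changed by 0.76 in HCT116 and -0.78 in A549. PRM1 was well above background on A549 miR-891b alone. TNP1, DAZL and DDX4 were not well above background on any array. The sum of the 6 testis markers was 0.49 on both HCT116 arrays and 0.33 and 0.31 on A549 NC1 and miR-891b. SYCP3, of the meiotic chromosome axis, was marked on HCT116 NC1 and at least 1.5-fold lower on HCT116 miR-891b.

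The genes with the pattern most like DUSP13 were found by the Euclidean distance over 3 values, the change in each line and the NC1 difference between lines, among 18062 other genes measured on all 4 arrays. The nearest was IL6R, the interleukin-6 receptor, at a distance of 1.19, with changes of 1.69 in HCT116 and 3.20 in A549. ECM1, an extracellular matrix protein gene, followed at 1.55 with changes of 1.90 and 2.32. The noncoding RNA lnc-TTLL11-1 stood at 1.63, with 0.98 and 3.0. EOMES, a T-box transcription factor gene whose spot lay in an area of stray signal on HCT116 miR-891b, stood at 1.64 with 1.22 and 2.30, and ITGB8, an integrin subunit gene, at 1.75 with 1.32 and 2.06. Under normexp with quantile normalization the changes of IL6R were 0.35 and 0.93 and those of ECM1 0.79 and 1.04.

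**Figure D2:**
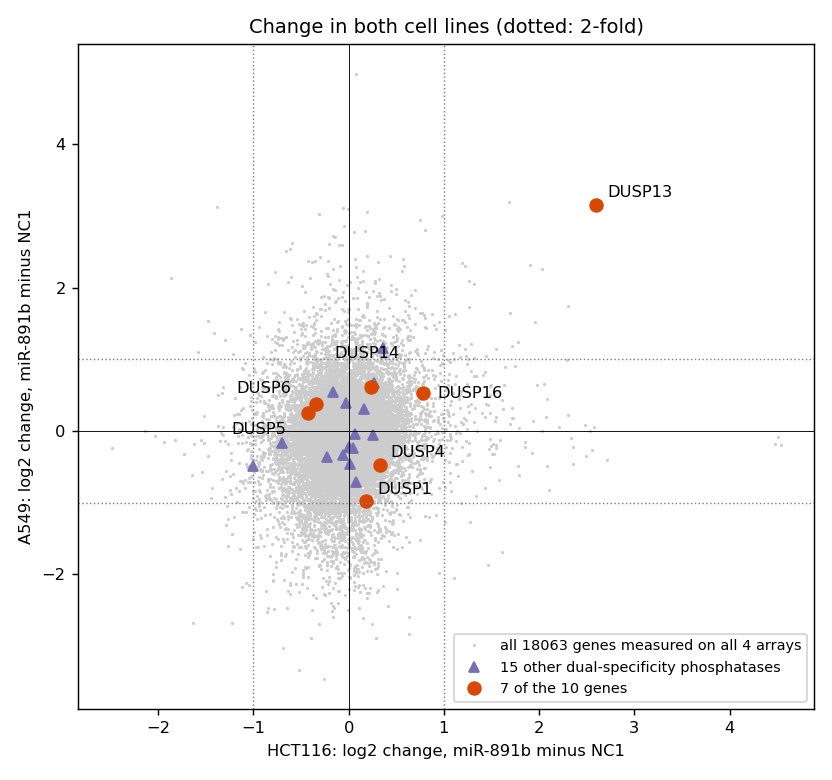
Log2 change (miR-891b minus NC1) in HCT116 (x axis) and A549 (y axis) for 18063 genes measured on all 4 arrays (grey), 15 other dual-specificity phosphatases (purple triangles) and the 7 members measured on all 4 (orange circles), with dotted lines at 2-fold. DUSP13 lies at 2.60 and 3.16, and each of the other 6 lies inside 2-fold in both lines, with DUSP1 at -0.98 on the A549 axis.

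DUSP14, the other atypical member, a small phosphatase that also acts on the TAK1 adaptor TAB1, was measured on all 4 arrays. Its levels were 3.45 and 3.69 on HCT116 NC1 and miR-891b, and 3.18 and 3.79 on A549 NC1 and miR-891b. Both miR-891b arrays were above both NC1 arrays, an order whose share among all genes is not given here. The changes, 0.23 in HCT116 and 0.61 in A549, were under 2-fold.

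DUSP10 and DUSP16 act mainly on JNK and p38. DUSP10 was not well above background on either HCT116 array, with levels of -3.59 on NC1 and -3.25 on miR-891b, and 11.1% of dim spots near it were lit on HCT116 miR-891b. In A549 its level was -1.33 under NC1 and 0.05 under miR-891b, both marked as well above background, which is a change of 1.38 or 2.60-fold. Under normexp with quantile normalization the A549 change was 0.60, short of 2-fold.

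DUSP16 was dim and measured on all 4 arrays. Its levels were -2.94 and -2.16 on HCT116 NC1 and miR-891b, a change of 0.78 or 1.72-fold, from signals of 7.14 and 12.7 intensity units. In A549 they were -1.14 and -0.60, a change of 0.54. The miR-891b array was the higher in each line, with both A549 arrays above both HCT116 arrays. Under normexp with quantile normalization the changes were 0.12 and 0.23.

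The inducible phosphatases of the nucleus are DUSP1, DUSP2, DUSP4 and DUSP5. DUSP1, an immediate early gene that acts on p38, JNK and ERK, is the only member printed at several spots. On HCT116 NC1 its 10 spots ran from 0.34 to 0.73 with a median of 0.63, and on HCT116 miR-891b from 0.65 to 0.89 with a median of 0.78. On A549 NC1 they ran from 2.78 to 3.05 with a median of 2.92, and on A549 miR-891b from 1.87 to 2.05 with a median of 1.92. The spots of the A549 arrays did not overlap, and those of the HCT116 arrays did.

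The DUSP1 change was 0.19 in HCT116 (SD over spots 0.13, n = 10 spots, 9 of 10 higher) and -0.98 in A549 (SD 0.11, n = 10 spots, 10 of 10 lower). These SDs cover the spread within an array and not that between cultures. On HCT116 miR-891b, 2 of the 10 spots lay in areas of stray signal. With those 2 left out on all arrays, a choice made after the data were seen, the changes were 0.14 and -1.01, which puts the A549 change past 2-fold.

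**Figure D3:**
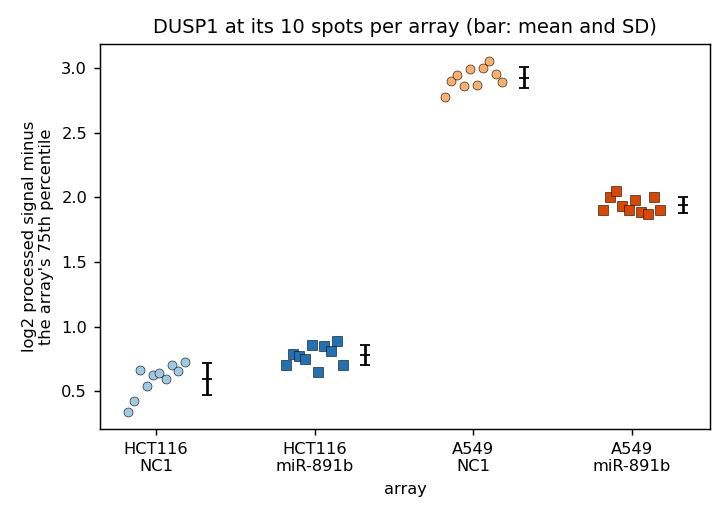
DUSP1 level at each of its 10 spots (points) on each array (x axis), as log2 processed signal less the 75th percentile of its array (y axis), with bars for the mean and SD over spots. The A549 NC1 spots lie between 2.78 and 3.05 and the A549 miR-891b spots between 1.87 and 2.05, while the HCT116 spots lie between 0.34 and 0.89.

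DUSP2, known from activated lymphocytes, was at -0.16 on HCT116 NC1 and -0.07 on HCT116 miR-891b, a change of 0.097. On A549 NC1 it was at -3.60 and marked, and on A549 miR-891b it was not well above background, at -4.71. Measured against the lowest marked signal of that array, it was at least 1.26-fold lower with miR-891b. DUSP2 was therefore counted as measured in HCT116 alone. It was far brighter on both HCT116 arrays than on either A549 array.

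DUSP4, which acts on ERK and JNK, had levels of 4.06 and 4.39 on HCT116 NC1 and miR-891b, and 4.65 and 4.18 on A549 NC1 and miR-891b. It was higher with miR-891b by 0.33 in HCT116 and lower by a change of -0.47 in A549. The 4 levels lay within a narrow band and the lines overlapped.

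DUSP5, an ERK-specific nuclear phosphatase, had levels of 2.99 and 2.56 on HCT116 NC1 and miR-891b, and -0.23 and 0.025 on A549 NC1 and miR-891b. The change was -0.43 in HCT116 and 0.26 in A549. Both HCT116 levels were above both A549 levels.

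DUSP6 and DUSP7 are the cytoplasmic ERK phosphatases of the set, and DUSP6 transcript is a common readout of ERK signalling. The DUSP6 level was 6.65 on HCT116 NC1 and 6.30 on HCT116 miR-891b, a change of -0.35. In A549 it was 2.53 under NC1 and 2.91 under miR-891b, a change of 0.38. The HCT116 arrays were far above the A549 arrays under either transfection. DUSP7 was on no array well above background, so it has no change to report from its single probe.

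**Figure D4:**
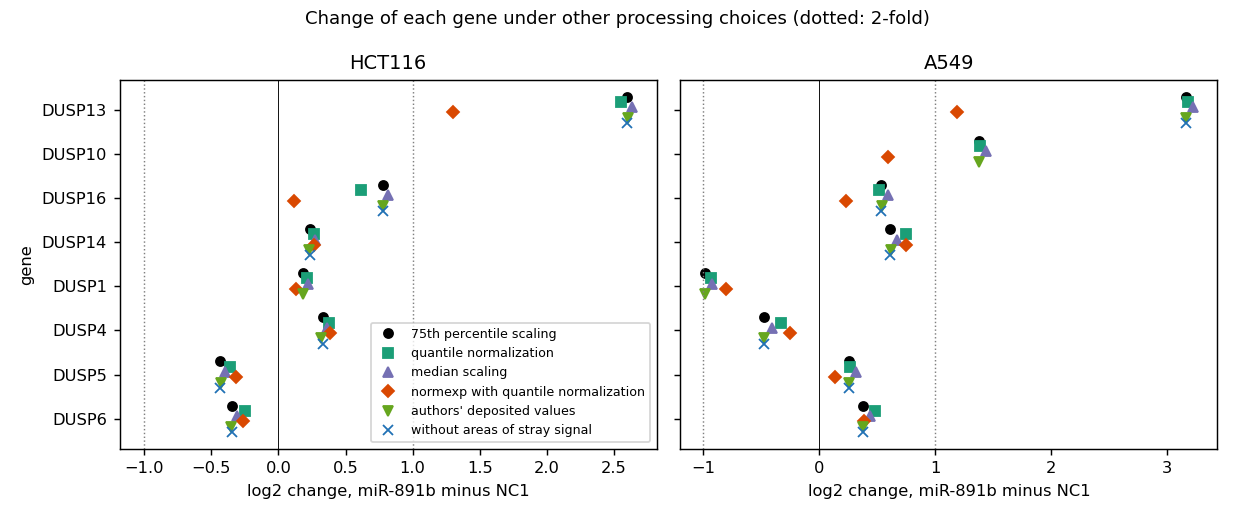
Log2 change (x axis, miR-891b minus NC1) of 8 genes (y axis) in HCT116 and A549 under 6 processing choices, each with its own symbol, with dotted lines at 2-fold. Normexp with quantile normalization (red diamonds) gave the smallest DUSP13 changes, 1.30 in HCT116 and 1.19 in A549, and no gene changed sign.

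Between the control arrays, 8 of the 10 genes were measured in both lines. In A549 NC1, 2 of them (DUSP1 and DUSP16) were at least 2-fold higher than in HCT116 NC1 and 4 (DUSP2, DUSP5, DUSP6 and DUSP13) at least 2-fold lower, beside 11.1% and 16.2% of 19219 measured genes. The difference, A549 minus HCT116, was 2.33 for DUSP1 and 1.80 for DUSP16. It was -4.12 for DUSP6 (17.4-fold lower in A549), -3.43 for DUSP2, -3.22 for DUSP5 and -1.18 for DUSP13. DUSP4 differed by 0.59 and DUSP14 by -0.28. The brightness of DUSP10 in A549 NC1 was at least 4.66-fold that in HCT116 NC1, where it was not well above background. Under normexp with quantile normalization DUSP2 differed by -0.99, DUSP13 by -0.30 and DUSP16 by 0.39, all within 2-fold.

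The other dual-specificity phosphatases, a list of 19 genes, had 15 measured in each line. In HCT116 0 were at least 2-fold higher and 1 lower, with a median change of 0.01. The lower one was DUSP26, an atypical phosphatase, at -1.0, which was -0.96 under median scaling and -0.34 under normexp with quantile normalization. In A549 1 was higher and 0 lower, with a median of -0.17. The higher one was PTPMT1, a mitochondrial lipid phosphatase of cardiolipin synthesis, at 1.16, and its change in HCT116 was 0.36. DUSP9, a cytoplasmic ERK phosphatase, was at -0.70 and -0.17, without passing 2-fold.

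The kinases that these phosphatases meet were also listed. Of 14 MAP kinases, 13 were measured in HCT116 and 10 in A549, 0 were past 2-fold in either line, and the medians were 0.06 and 0.13. Of 10 RAF and MAP kinase kinases, all 10 were measured in both lines, with medians of -0.09 and 0.06. MAP2K4, which activates JNK and p38, was the 1 past 2-fold, at 1.07 in A549, with 0.73 in HCT116. With the mean over its probes in place of the brightest, it did not pass 2-fold in A549.

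Genes commonly transcribed on ERK activation, 17 of them with the DUSPs left out, had 16 measured in each line. In HCT116 0 were past 2-fold, 13 of 16 were lower with miR-891b (12 of 16 under quantile normalization, median scaling, normexp or the authors' values), where 55.5% of all 19105 measured genes were lower. The median was -0.39, beside -0.04 for all genes and the DUSP5 and DUSP6 changes of -0.43 and -0.35. The lowest changes of the list were those of the feedback inhibitor SPRY1, at -0.88, and of SPRY4, at -0.82. The 3 listed genes that were higher were EMP1 at 0.41, FOSL1 at 0.30 and EPHA4 at 0.13. Among the phosphatases, DUSP1 and DUSP4 were higher in HCT116, by 0.19 and 0.33. In A549 2 were at least 2-fold higher (EPHA4 at 1.02 and PHLDA1 at the 2-fold line) and 2 lower (CCND1, cyclin D1, at -1.61 and EPHA2 at -1.14), with a median of 0.24. Under normexp with quantile normalization 0 were at least 2-fold higher and 1, CCND1, lower. Between the control arrays, 9 of 16 were lower in A549 by 2-fold or more, with a median of -1.19, beside -0.10 for all genes. Over the alternatives of scaling, filter and probe choice, the HCT116 median stayed negative and the A549 median positive.

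**Figure D5:**
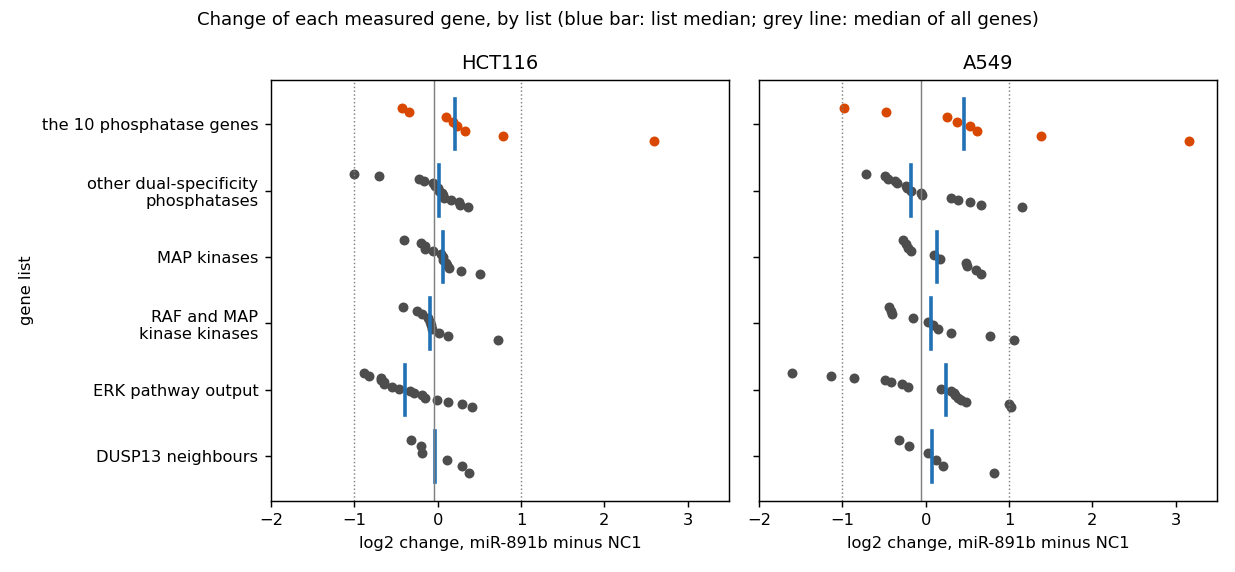
Log2 change (x axis, miR-891b minus NC1) of each measured gene in HCT116 (left) and A549 (right) for 6 gene lists (y axis), with a blue bar at each list's median, a grey line at the median of all genes and dotted lines at 2-fold. The ERK pathway output list has its median at -0.39 in HCT116 and 0.24 in A549, and DUSP13 is the point farthest to the right in both panels.

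Markers of cell types that cultures of these lines should lack were read on the same arrays. Of 7 fibroblast markers, 2 were measured in HCT116 with 0 past 2-fold, and 4 in A549. There LUM, a matrix proteoglycan gene, was higher with miR-891b by 2.14 and THY1 differed by -1.04 (-0.28 under normexp with quantile normalization), and the summed level of the list in A549 was 4.26 under NC1 and 10.5 under miR-891b, against 2.64 and 2.19 on the HCT116 arrays. The collagen gene COL1A1 and PDGFRB were well above background on all 4 arrays. The collagen genes COL1A2 and COL3A1, and DCN, were not well above background on any array. Of 4 leukocyte markers, 3 were measured in HCT116 and 2 in A549, with 0 past 2-fold, and CD3E was on no array well above background. The part of these markers in the changes of DUSP13 and DUSP10 was not tested.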

How the data were processed

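Gene expression was measured on 4 Agilent 1-colour arrays, 1 per group, grouped by the sample titles. The deposited scanner files hold intensity values, made by Agilent Feature Extraction 11.5.1.1 with a background subtracted within each array, per the file headers. The deposited table of the authors' values is in log2 units. How the authors made it is not given in the sources used here, and it differed from the values computed here by a median of 0.0069 or less per array.

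Spots marked as outliers were left out. For each probe the mean log2 processed signal of its spots was taken, less the 75th percentile of the array. A gene was represented by its brightest probe. With 1 array per group no test was made, and a change was called at 2-fold or more. A bound ("at least") sets the bright array against the lowest signal marked well above background on the dim one.

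The members and all gene lists were chosen with earlier results of these data known. All members were named, with list genes past 2-fold with miR-891b, the listed neighbours of DUSP13 and the 5 genes nearest to it in pattern. Its other features within 500 kb are given by count and range, with lnc-C10orf11-1 named after its value was seen. DUSP9, SPRY1, SPRY4, EMP1, FOSL1, COL1A1, PDGFRB, DES, ACTA1, MYOG and PRM2, within 2-fold where measured, were added after their values were seen. The alternatives were quantile normalization, median scaling, normexp (offset 50) with quantile normalization (limma 3.58.1 in R 4.3.3), the authors' values, the mean over probes, no filter on dim probes, areas of stray signal left out (10 rows and columns, 10%), and a 1.5-fold threshold. The other steps ran in Python 3.11.15 (numpy 2.4.6, pandas version 2.3.3) and were tested on simulated data.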

Additional observations from a re-analysis of the deposited data

Results flagged for a closer look

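A group of 4 genes differed in opposite directions between the lines, each by more than 2 times the median SD over spots of the 274 probes printed at 5 or more spots (0.061 in HCT116 and 0.071 in A549). With miR-891b, DUSP1 changed by 0.19 in HCT116 and by -0.98 in A549, and DUSP4 by 0.33 and -0.47. The HCT116 change of DUSP1 is under 2 times its own SD over spots (0.13), and the A549 change of DUSP5 under 2 times the median SD of dim probes (0.19). DUSP5 changed by -0.43 in HCT116 and by 0.26 in A549, and DUSP6 by -0.35 and 0.38. The SD over spots is a spread within an array and not between cultures, so this is a low bar. Changes of all measured genes had an SD of 0.38 in HCT116 and 0.61 in A549. With 1 array per group, no test of the difference between the lines could be made for any of the 4, so it was not tested. Of all genes measured on all 4 arrays, 45.1% had opposite signs at any size of change. The share of all genes that meet the same flag was not counted.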

How the results depend on the processing

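Each of the 24 member values (8 changes in each line and 8 differences between the control arrays) kept its sign under every alternative that gave a value. The count of members past 2-fold was 1 in HCT116 and became 2 with no filter on dim probes (DUSP13 higher, DUSP7 lower and not well above background) and 2 at 1.5-fold (DUSP13 and DUSP16). In A549 the count of 2 became 1 under normexp with quantile normalization, where DUSP10 was lost, 1 without areas of stray signal, which left out the DUSP10 probe, and 4 at 1.5-fold (3 higher, 1 lower). It became 3 (2 higher, 1 lower) with no filter on dim probes, which adds DUSP2, and 3 (2 higher, 1 lower) without the DUSP1 spots in areas of stray signal, which adds DUSP1, an alternative chosen after the data were seen. Over all genes, normexp called 27 higher and 13 lower in HCT116 in place of 221 and 161, and 346 and 416 in A549 in place of 855 and 1189. In the NC1 comparison it called 1121 and 1434 in place of 2127 and 3114. With no filter on dim probes the counts were 2788 and 1434 in HCT116, 2934 and 3081 in A549, and 5301 and 6539 between the NC1 arrays. In HCT116 the split was 134 lower to 241 higher under median scaling and 143 to 139 without areas of stray signal. In A549, 743 of 18751 measured genes were higher and 1037 lower without areas of stray signal. The share of all genes past 1.5-fold is not given here, so nothing is read from the member counts at 1.5-fold. Normexp adds 50 intensity units, more than the DUSP13 signal on either NC1 array (20.1 and 12.1), and so shrinks changes of dim probes. No paired analysis was possible because each group had 1 array and the labels give no replicate numbers. Signal over background limits DUSP2 in A549, DUSP10 in HCT116 and DUSP7 in both.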
